A study of Mus musculus with 61 samples.

Results

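Pdx1, Mafa, Nkx6-1 and Mnx1 are transcription factor genes of the insulin-producing β cell. They were chosen by name, as 4 of the 46078 genes in the deposited count table, and each was among the 24004 genes tested. They were followed in mouse C57BL/6 pancreatic ductal organoid cells in which Ngn3, Pdx1 and MafA had been switched on from lentiviral vectors by 8 days of doxycycline. Each factor came from a separate doxycycline-inducible vector with its own fluorescent reporter: GFP for Ngn3, LSS-Orange for Pdx1 and tdTomato for MafA. Another vector supplied the transactivator to all cells. Cells were sorted by colour into pools of 50 cells, and each library was made from 1 pool. Sorted cells carried the vector for Pdx1, that for MafA or both of these, in each case either without Ngn3 or together with it. Cells with Ngn3, Pdx1 and MafA are called cells with the 3 factors. The Ngn3 vector of a culture held either the wild-type form (WT cultures) or a phospho-mutant with 6 serines changed to alanine (6SA cultures). Cells without Ngn3 were sorted from the same cultures, which made 12 conditions. A condition had 2 or 3 biological replicates, replicates 1 and 2 from organoids at passage 2 and replicate 3 at passage 5, and each had 1 to 3 technical repeats. Uninfected cells and cells with Ngn3 alone were not analysed here, so every cell carried at least 1 of the vectors that encode Pdx1 and MafA.

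Pdx1 is a homeodomain factor that marks the pancreatic progenitor and duct epithelium of the embryo and is later held at high levels in β cells, where it binds the insulin promoter. Mafa is a basic leucine zipper factor that appears late in β-cell maturation and activates insulin transcription. Nkx6-1 and Mnx1 are homeodomain factors that keep β cells from taking other endocrine fates, and both are also used in motor neuron development. Ngn3 is the basic helix-loop-helix factor that starts endocrine differentiation in the pancreas.

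Because Pdx1 and Mafa were themselves delivered by vectors, it matters which reads can carry each name. The counts do not separate the transcript of a vector from that of the cell's own gene. Reads were 50 bases long and single-end, so every stretch of 50 bases of a reference transcript of each member was compared with the transcripts of all other genes. None of the 2109, 2690, 3089 and 2196 stretches of Pdx1, Mafa, Nkx6-1 and Mnx1 was found in another gene. Sequences and positions are from GRCm38, the build the authors' annotation uses, with GENCODE M21 gene models. Pdx1 (ENSMUSG00000029644) lies at chr5:147269959-147275848 on the plus strand. Nkx6-1 (ENSMUSG00000035187) lies at chr5:101658139-101664996 and Mnx1 (ENSMUSG00000001566) at chr5:29473034-29478470, both on the minus strand. Mafa (ENSMUSG00000047591) lies at chr15:75745490-75748228 on the minus strand. The homeobox, the coding stretch for the DNA-binding domain, is shown for Pdx1 and Mnx1 to let their differences be seen. Capitals mark the 12 bases for the core of the recognition helix, the helix that contacts DNA.
Pdx1 (exon 2, chr5:147274409-147274588, plus strand): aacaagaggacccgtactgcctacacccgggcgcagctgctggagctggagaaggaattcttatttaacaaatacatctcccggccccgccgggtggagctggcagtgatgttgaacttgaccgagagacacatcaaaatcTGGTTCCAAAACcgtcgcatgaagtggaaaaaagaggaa
Mnx1 (exons 2 and 3, joined, within chr5:29474184-29474887, minus strand): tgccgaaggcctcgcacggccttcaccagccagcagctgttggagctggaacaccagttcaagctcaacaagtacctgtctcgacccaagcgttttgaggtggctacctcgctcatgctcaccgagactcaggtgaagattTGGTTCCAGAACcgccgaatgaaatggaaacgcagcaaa
Over these 180 bases Pdx1 and Mnx1 were 62.8% identical. The longest run they shared was 11 bases, well under the length of a read.

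After technical repeats were summed there were 32 samples, 17 with Ngn3 and 15 without, with 2579583 to 19461008 counts on genes. Of 61 libraries 58 had over 1000000 such counts and were kept. The 3 left out were all pools with the 3 factors, so WT replicate 2 kept 1 of its 2 pools, 6SA replicate 2 kept 1 of 2, and 6SA replicate 3 was lost. Levels are given as counts per 1000000 counts of the sample (CPM), scaled by TMM. The level that 3 counts give ran from 0.136 to 1.01 CPM on this scale across samples and was taken as the limit of detection. Neurog3, the gene that encodes Ngn3, checked the sort. It was at 7.87 to 329 CPM in the 17 samples with Ngn3 and at 0 to 0.788 CPM in the 15 without (log2 fold change 8.63 ± 0.61, SE, adjusted p = 4.56e-11). The labels do not say whether replicates came from separate animals, so p-values measure the spread between these samples. In pools of 50 cells, fewer cells with a transcript and less transcript per cell cannot be told apart.

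Pdx1 had over 3 counts in all 32 samples and in 57 of 58 pools, with or without its vector; the other pool had 1 count. Its level stayed within one range in 10 conditions and was far higher in most samples with the 3 factors. In WT cells with the 3 factors Pdx1 stood at 164, 191 and 30.8 CPM in replicates 1 to 3. In 6SA cells with the 3 factors it stood at 150 and 134 CPM. The other 27 samples lay between 3.21 and 48.4 CPM, so 4 of the 5 samples with the 3 factors were above all of them and WT replicate 3, at passage 5, was not. With Ngn3 and Pdx1 the levels were 32.0, 36.8 and 9.84 CPM in WT cells and 48.4, 34.4 and 21.8 CPM in 6SA cells. With Ngn3 and MafA, which bring no Pdx1 vector, they were 11.1, 11.7 and 4.39 CPM in WT cells and 30.6, 11.4 and 3.21 CPM in 6SA cells. Both sets overlapped the samples without Ngn3, which ran from 4.22 to 37.7 CPM.

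**Figure D1:**
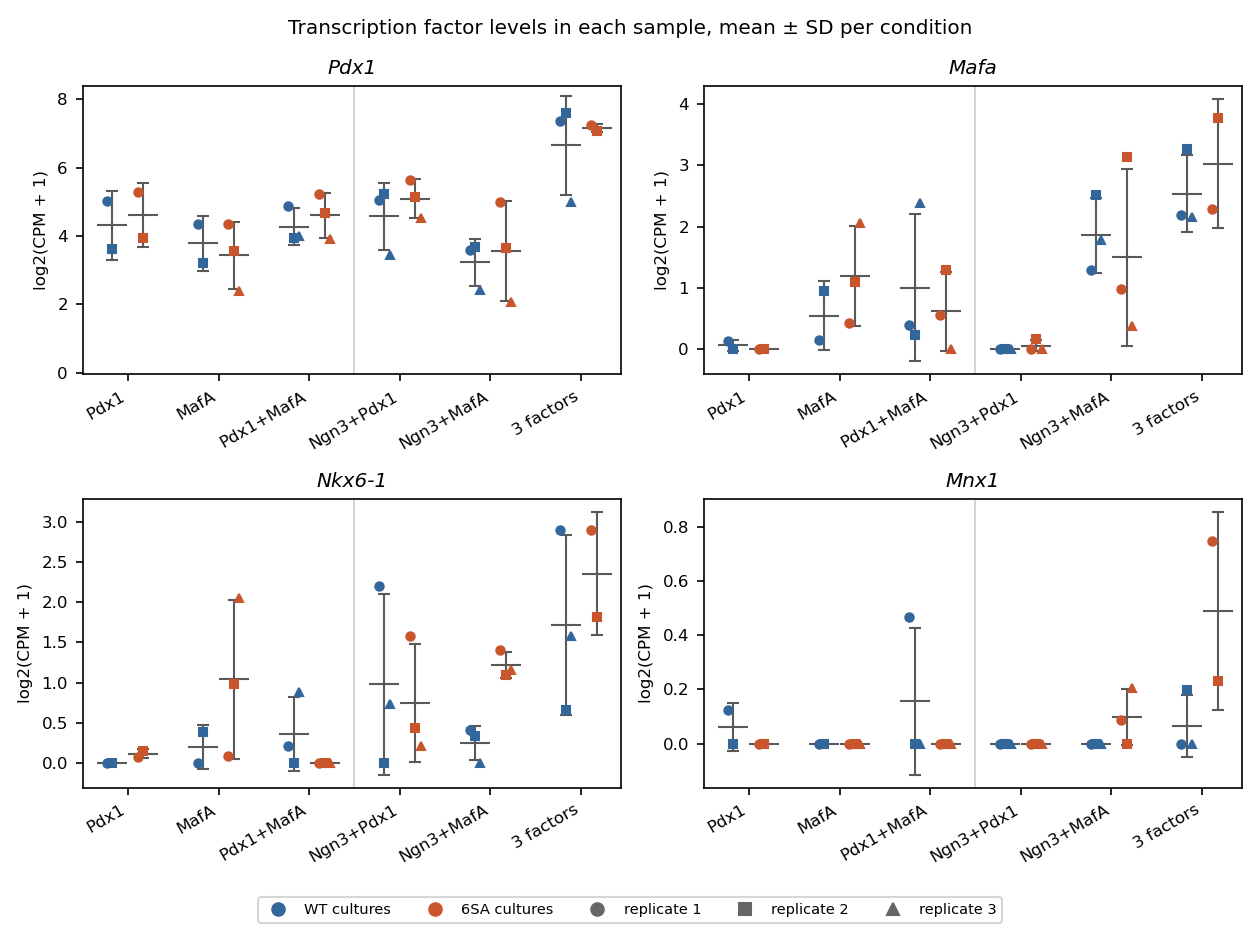
Level of each gene in each sample as log2(CPM + 1), by condition (x axis), with WT cultures in blue, 6SA cultures in orange, a marker for each replicate number, and horizontal ticks and bars for the mean and SD; the vertical line divides conditions without Ngn3 (left) from those with it. Pdx1 was above 0 in every sample, whereas Mafa was near 0 without the MafA vector and Mnx1 was above 0 in 7 of 32 samples.

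By condition, mean Pdx1 was 142 ± 11.4 CPM (SD, n = 2) in 6SA and 129 ± 85.7 CPM (n = 3) in WT cells with the 3 factors. The next mean was 34.9 ± 13.3 CPM (n = 3) in 6SA cells with Ngn3 and Pdx1, and the lowest was 9.06 ± 4.06 CPM (n = 3) in WT cells with Ngn3 and MafA. In that order the replicates of all 11 neighbouring pairs of conditions overlapped. Replicate 3 had the lowest Pdx1 in 7 of the 8 conditions that had it.

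Without Ngn3, the Pdx1 vector made no difference to Pdx1 that passed the test. Cells with MafA alone had 19.3 and 8.33 CPM (WT) and 19.2, 10.9 and 4.22 CPM (6SA). Cells with Pdx1 and MafA had 28.6, 14.3 and 15.1 CPM (WT) and 36.4, 24.6 and 14 CPM (6SA). The level was higher in 5 of 5 pairs of samples that share a culture and a replicate number (log2 fold change 0.79 ± 0.54, adjusted p = 1.00). In this comparison edgeR called 0.00% of genes, 689 at an unadjusted p under 0.05, and DESeq2 called 24. Cells with Pdx1 alone, at 31.7 and 11.2 CPM in WT and 37.7 and 14.4 CPM in 6SA cultures, overlapped both groups. Adding MafA to Pdx1 without Ngn3 gave -0.11 ± 0.55 (adjusted p = 1.00), with 0.00% of genes called by edgeR, 531 at an unadjusted p under 0.05, and 13 called by DESeq2.

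Beside Ngn3, both additions gave higher Pdx1. When the Pdx1 vector was added to Ngn3 with MafA, Pdx1 rose by 3.52 ± 0.56 on the log2 scale (adjusted p = 9.3e-04, higher in 5 of 5 pairs). Of all genes tested 2.72% were called in this comparison, 654 genes, or 2038 with the replicate number as a block. When the MafA vector was added to Ngn3 with Pdx1, where both sides carried the Pdx1 vector, Pdx1 rose by 2.16 ± 0.53 (adjusted p = 0.0284, higher in 5 of 5 pairs). Of all genes 1.88% were called there. Neither call held without replicate 2, which leaves 1 sample of 6SA cells with the 3 factors (adjusted p = 0.203 and 0.634). The gain from the Pdx1 vector was larger with Ngn3 than without by 2.73 ± 0.75 (adjusted p = 0.190, with 0.0125% of genes called higher), which missed the threshold. With the replicate number as a block it passed (adjusted p = 0.0270).

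Over the 6 conditions with Ngn3 against the 6 without, Pdx1 rose by 0.95 ± 0.32 (adjusted p = 0.0296) and was higher in 12 of 14 same-numbered pairs. Here 21.5% of all genes were called, 11.1% higher, so a call in this comparison was common. By background, genes called higher with Ngn3 made up 0.108%, 0.308% and 2.48% in WT cells with Pdx1, with MafA and with both, and 0.367%, 1.17% and 3.29% in 6SA cells. Pdx1 was among them in 1 of the 6, WT cells with Pdx1 and MafA, where it rose by 2.73 ± 0.75 (adjusted p = 0.0308). That call did not hold under every alternative run for it. In 6SA cells with Pdx1 and MafA the difference was 2.5 ± 0.78 (adjusted p = 0.0549). With the replicate number as a block, though 12 of 14 same-numbered pairs and not all deviated together across the Ngn3 comparison, this difference passed (2.12, adjusted p = 0.0037). In the other 4 the estimates lay between -0.62 and 0.42. Cells with Pdx1 alone had no replicate 3, whereas cells with Ngn3 and Pdx1 did, and among same-numbered samples of these Pdx1 was higher with Ngn3 in 4 of 4 pairs (log2 fold change with the block 0.73 ± 0.49 in WT, adjusted p = 0.742, and 0.98 ± 0.49 in 6SA, adjusted p = 0.498). Without replicate 2 the difference over all backgrounds was 0.54 (adjusted p = 0.70), and with 1 common Ngn3 term it was 0.97 (adjusted p = 0.0546).

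**Figure D2:**
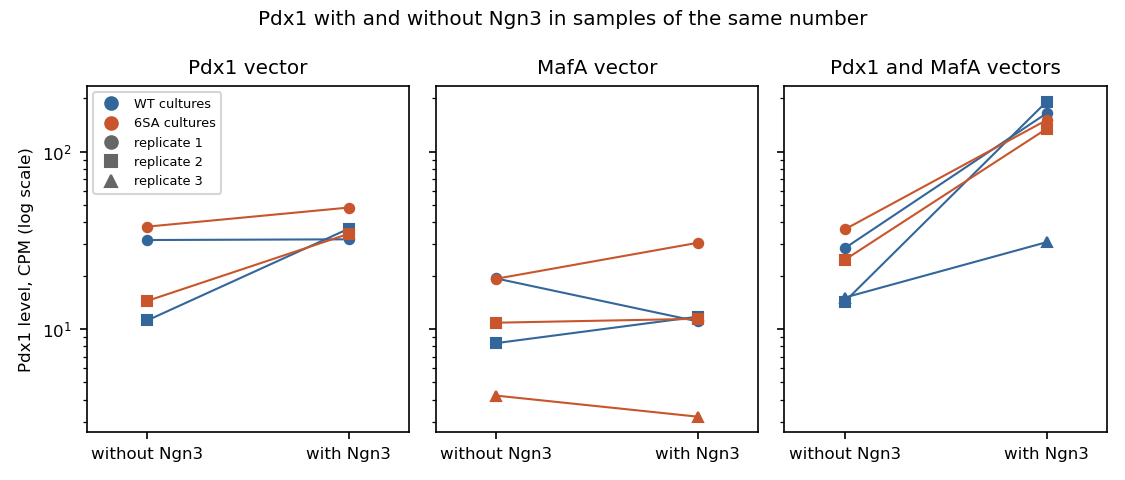
Pdx1 level in CPM (log scale) without and with Ngn3, with a line for each pair of samples that share culture and replicate number, in cells with the Pdx1 vector, the MafA vector or both. The lines rise in all 4 pairs of the first panel, in 3 of 5 of the second and in all 5 of the third, where WT replicate 3 rises least (15.1 to 30.8 CPM).

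A limit of counting touches Pdx1. The antisense gene Plut (ENSMUSG00000092570, chr5:147228596-147271521, minus strand) overlaps its 5′ end, and the use of strand in counting is not stated. Plut was at 0.955 to 17.5 CPM with Ngn3 and 2.44 to 7.18 CPM without. It did not pass the test in any comparison made here (for MafA added to Ngn3 with Pdx1, -0.49 ± 0.53).

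Mafa was low throughout and followed its vector. In the 10 samples without the MafA vector it had at most 1 count. In the 11 samples with the vector and without Ngn3 it ran from 0 to 4.21 CPM. With Ngn3 and MafA it stood at 1.45, 4.69 and 2.42 CPM in WT cells and 0.978, 7.79 and 0.306 CPM in 6SA cells. With the 3 factors it stood at 3.56, 8.63 and 3.46 CPM in WT cells and 3.87 and 12.7 CPM in 6SA cells. These 5 samples lay above 10 of the 11 samples that had the vector without Ngn3, the exception being WT Pdx1 with MafA replicate 3, with 35 counts and 4.21 CPM. Summed over all 32 samples Mafa had 584 counts, against 13627 for Pdx1.

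The mean Mafa level was 8.27 ± 6.23 CPM (n = 2) in 6SA and 5.22 ± 2.96 CPM (n = 3) in WT cells with the 3 factors. Cells with Ngn3 and MafA followed, at 3.02 ± 4.14 CPM in 6SA and 2.86 ± 1.66 CPM in WT cultures (n = 3 each). The 8 conditions with the MafA vector took the 8 highest places, down to 0.516 ± 0.579 CPM (n = 2) in WT cells with MafA alone. Of the 11 neighbouring pairs 10 overlapped.

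Adding the MafA vector to Ngn3 with Pdx1 gave higher Mafa in 5 of 5 pairs (log2 fold change 8.09 ± 1.45, adjusted p = 0.0032), which checks the vector. Since the cells with Ngn3 and Pdx1 had 0 or 1 count per sample, the fold is a lower bound: at least 9.14-fold higher in WT and at least 25.8-fold higher in 6SA cells, against 3 counts per sample. The call was lost without replicate 2 (adjusted p = 0.163). Without Ngn3 the same addition gave 5.04 ± 1.51 (adjusted p = 1.00), higher in 4 of 4 pairs. Adding Pdx1 to Ngn3 with MafA gave 1.16 ± 0.99 (adjusted p = 0.583), so a further rise with the 3 factors was not shown, although the level was higher in 5 of 5 pairs.

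Ngn3 itself went with higher Mafa among cells that carried the MafA vector. A mean over all 3 backgrounds could not be fitted for Mafa, because conditions with and without Ngn3 had no counts, so the comparison was made over the 8 conditions with the vector, a choice made after seeing the data. There Mafa rose by 2.25 ± 0.77 (adjusted p = 0.0391), where 10.1% of all genes were called higher. The call was lost without replicate 1 (adjusted p = 0.151) and without replicate 2 (adjusted p = 0.437). None of the 4 single differences behind it passed the threshold: they were 2.60 ± 1.77 and 1.01 ± 1.37 in MafA cells and 1.72 ± 1.38 and 3.68 ± 1.56 in cells with Pdx1 and MafA, WT first.

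Nkx6-1, for which no vector was used, was near the limit of detection in most samples without Ngn3. It was higher with Ngn3 as a mean over the backgrounds, though not in each of them. It was absent from the counts of 7 of the 15 samples without Ngn3, had over 3 counts in 3 of them, and ran from 0 to 3.16 CPM. With Ngn3 it had counts in 15 of 17 samples and over 3 counts in 12. With the 3 factors it stood at 6.48, 0.585 and 1.99 CPM in WT cells and 6.44 and 2.52 CPM in 6SA cells. With Ngn3 and Pdx1 it stood at 3.60, 0 and 0.656 CPM in WT cells and 1.99, 0.349 and 0.159 CPM in 6SA cells. With Ngn3 and MafA it stood at 0.323, 0.261 and 0 CPM in WT cells and 1.65, 1.14 and 1.22 CPM in 6SA cells. The samples with and without Ngn3 therefore overlapped, and the highest without it, 6SA MafA replicate 3 with 12 counts, reached the range of the 3 factors.

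The highest mean was 4.48 ± 2.78 CPM (n = 2) in 6SA cells with the 3 factors, followed by 3.02 ± 3.08 CPM (n = 3) in WT cells with the 3 factors. WT cells with Pdx1 (n = 2) and 6SA cells with Pdx1 and MafA (n = 3) had no counts. The SD was as large as the mean in several conditions, and 10 of the 11 neighbouring pairs overlapped.

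Over all backgrounds Nkx6-1 rose by 3.74 ± 0.82 with Ngn3 (adjusted p = 0.0014) and was higher in 11 of 14 same-numbered pairs, equal in 1 and lower in 2. It shares this call with 11.1% of the genes tested. Some conditions without Ngn3 had no counts, so the size of this estimate depends on the prior count; with 1 common Ngn3 term it was 3.12 ± 0.90 (adjusted p = 0.0097). Without replicate 1, which held the highest Nkx6-1 levels, the difference was 2.05 (adjusted p = 0.361). By culture the rise was 3.89 ± 1.08 in 6SA cells (adjusted p = 0.0163, 8.12% of genes higher) and 3.59 ± 1.25 in WT cells (adjusted p = 0.0774, 4.23% higher). By single background, the estimates in MafA cells were 0.78 ± 2.03 in WT and -0.0035 ± 1.73 in 6SA cultures. In Pdx1 cells they were 6.87 ± 2.67 and 3.23 ± 1.93, and in WT cells with Pdx1 and MafA 3.13 ± 1.58. None of these passed. Nkx6-1 passed in 6SA cells with Pdx1 and MafA (8.45 ± 2.20, adjusted p = 0.0222), where the 3 factors gave at least 12.9-fold higher Nkx6-1 than 3 counts per sample. That call was lost when any of the 3 replicate numbers was left out (adjusted p from 0.0640 to 0.243).

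Neither vector factor added to Ngn3 gave a change in Nkx6-1 that passed. Adding Pdx1 to Ngn3 with MafA gave 2.78 ± 1.12 (adjusted p = 0.176) and adding MafA to Ngn3 with Pdx1 gave 1.69 ± 1.08 (adjusted p = 0.483), each with higher levels in 5 of 5 pairs. Without Ngn3, adding Pdx1 to MafA gave -2.63 ± 1.41 (adjusted p = 1.00), lower in 4 of 5 pairs. The difference between these responses to Pdx1, with and without Ngn3, was 5.40 ± 1.90 (adjusted p = 0.329). The effect of MafA added to Pdx1 without Ngn3 could not be fitted for Nkx6-1.

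**Figure D3:**
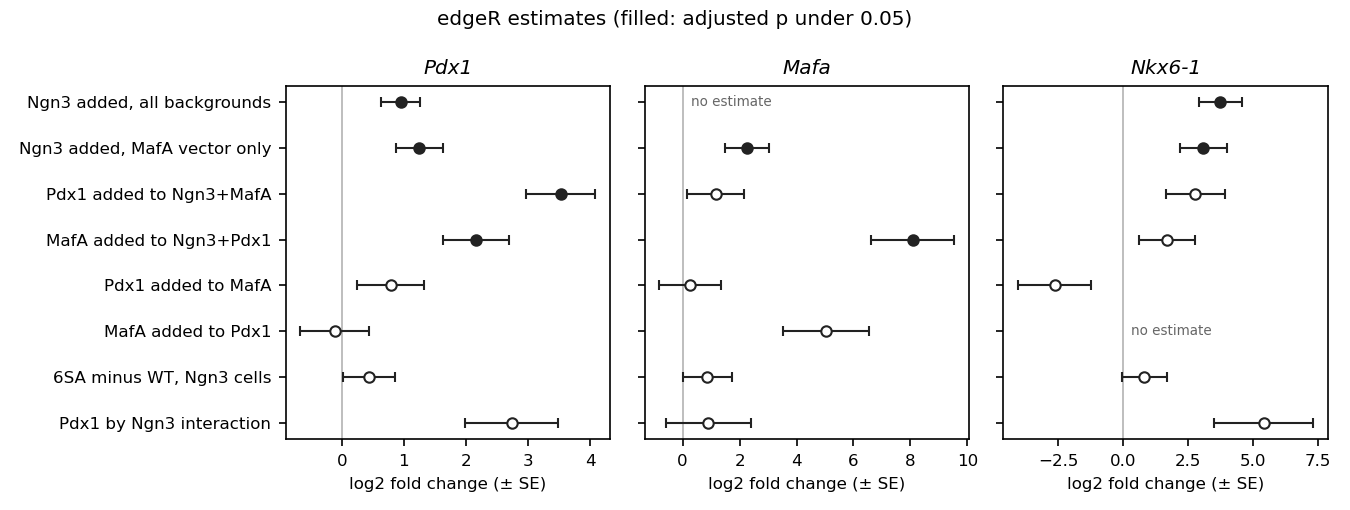
Log2 fold changes with SE (x axis) of Pdx1, Mafa and Nkx6-1 in the comparisons named at left, filled where the adjusted p was under 0.05 and open otherwise; "no estimate" marks comparisons that could not be fitted. Pdx1 passed in 4 of them, Mafa in 2 and Nkx6-1 in 2; for the second line, Ngn3 added among cells with the MafA vector, Pdx1 stood at 1.25 ± 0.38 and Nkx6-1 at 3.09 ± 0.91.

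Mnx1 was almost undetected. It had 21 counts in all, in 7 of 32 samples and 7 of 58 pools, and passed 3 counts in 2 samples. Replicate 1 of 6SA cells with the 3 factors had 10 counts, all of them in technical repeat 2. Replicate 1 of WT cells with Pdx1 and MafA had 5, all in technical repeat 3. Of the samples with the 3 factors, 6SA replicate 2 had 2 counts and WT replicate 2 had 1. All 6 samples with Ngn3 and Pdx1 had 0 counts. Mnx1 passed 0 of the 8 planned comparisons with edgeR, 6 of which could not be fitted for it, and its unadjusted p was under 0.05 in 1. DESeq2 called it in 0 and gave no adjusted p in 5. No fold is given. At this depth a level under 0.136 to 1.01 CPM was not detectable.

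The pools show how unevenly the low genes were sampled. Pdx1 had counts in 58 of 58 pools, Mafa in 36, Nkx6-1 in 32 and Mnx1 in 7. Among the 9 kept pools with the 3 factors, Pdx1 and Mafa were found in 9, Nkx6-1 in 8 and Mnx1 in 3. Among the 29 pools without Ngn3, Nkx6-1 was found in 8 and Mnx1 in 2. The 3 technical repeats of WT replicate 1 with the 3 factors had 42, 38 and 0 counts of Nkx6-1. On plain totals their Pdx1 levels were 298, 203 and 128 CPM and their Mafa levels 7.70, 7.11 and 0.843 CPM. The pool with 0 counts of Nkx6-1 was also the lowest of these 3 in Pdx1 and Mafa.

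**Figure D4:**
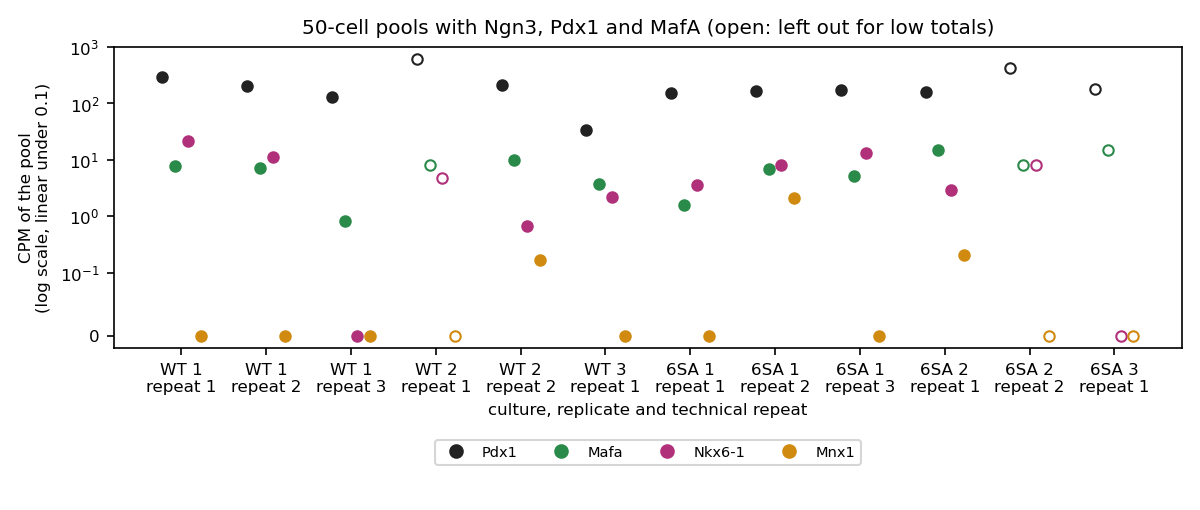
CPM on plain library totals (log scale, linear under 0.1) of the 4 genes in each pool with Ngn3, Pdx1 and MafA, by culture, replicate and technical repeat; open points are the 3 pools left out for low totals. Pdx1 was the highest of the 4 in every pool, and Nkx6-1 and Mnx1 were at 0 in some pools and not in others.

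Compared per length, as CPM per kilobase of exon, Pdx1 had the highest value of the 4 in all 12 conditions. The exon length is that of the whole gene, whereas the vectors held coding sequences only. Where their vectors were present, the values of Pdx1 and Mafa are therefore not measures of abundance. In cells with the 3 factors the value of Pdx1 was 59.6 ± 39.7 (WT, n = 3) and 65.9 ± 5.26 CPM per kilobase (6SA, n = 2). Mafa was at 1.90 ± 1.08 and 3.02 ± 2.27, Nkx6-1 at 0.962 ± 0.981 and 1.43 ± 0.885, and Mnx1 at 0.0217 ± 0.0375 and 0.189 ± 0.159 CPM per kilobase in the same conditions. The ranges of Mafa and Nkx6-1 overlapped.

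The form of Ngn3 was compared next. Between 6SA and WT cells with Ngn3, Pdx1 differed by 0.43 ± 0.42, Mafa by 0.86 ± 0.86 and Nkx6-1 by 0.81 ± 0.86 on the log2 scale (adjusted p = 1.00 for each), and none of these passed. In this comparison edgeR called 0.00% of genes, 1421 at an unadjusted p under 0.05, and DESeq2 called 26. The difference between the Ngn3 effects of the cultures was 0.31 ± 0.62 for Pdx1 (adjusted p = 1.00), with 0.00% of genes called by edgeR, 647 at an unadjusted p under 0.05, and 5 by DESeq2. It could not be fitted for Nkx6-1. In the comparison of 6SA with WT cells with Ngn3, the kind of Ngn3 and the culture cannot be told apart. The difference between the Ngn3 effects sets each form against cells without Ngn3 from the same kind of culture.

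Genes with the most similar pattern were ranked by Pearson r of log2(CPM + 1) over the 32 samples, which share depth and sort, as a description. For Pdx1 they were Ccdc30 (r = 0.862), Fras1 (0.853), Armh4 (0.853), Slc39a8 (0.852) and Ncoa1 (0.850). For Mafa they were St3gal5 (0.756), Mmd (0.756), Fam219a (0.751), 1700030C10Rik (0.749) and Col6a3 (0.745). For Nkx6-1 they were A330102I10Rik (0.825), C230034O21Rik (0.794), Gm19202 (0.784), Sat2 (0.781) and Chd5 (0.777). Those of Mnx1, led by Fmr1nb (0.887), were themselves near 0. A330102I10Rik, C230034O21Rik and Gm19202 were also low, with means of 0.891, 0.166 and 0.567 CPM with Ngn3 and 0.0879, 0 and 0.0236 CPM without. The members were less like each other: r was 0.289 for Pdx1 and Mafa, 0.397 for Pdx1 and Nkx6-1, and 0.467 for Mafa and Nkx6-1. Among the 17 samples with Ngn3 these were 0.374, 0.575 and 0.244, and among the 15 without, where Mafa and Nkx6-1 were low, they were -0.449, -0.701 and 0.775. Ins1, 1 of the 2 mouse insulin genes, had r = 0.759 with Pdx1, 0.611 with Nkx6-1 and 0.523 with Mafa, and was at 0 in all 15 samples without Ngn3.

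Other transcription factors of the endocrine pancreas differed strongly with Ngn3. Of 25 tested in a list of 26, 14 rose and 2 fell, with a median log2 fold change of 4.82 against 0.07 over all genes. Over all genes 21.5% were called and 11.1% rose. The 14 include Neurog3, which the vector brought and the sort selected; without it 13 of 24 rose (median 4.26). They included Neurod1, a helix-loop-helix factor downstream of Ngn3 (10.33 ± 0.56, adjusted p = 4.77e-13), and Rfx6, which acts in islet formation (10.92 ± 0.65, adjusted p = 4.53e-12). The LIM homeodomain factor Isl1 (10.54 ± 0.70) and the zinc finger factor St18 (10.54 ± 0.68) rose by as much (both adjusted p = 2.27e-11). With edgeR 0 of the 25 passed when Pdx1 was added to Ngn3 with MafA (6 at an unadjusted p under 0.05, and 2 with DESeq2), and 0 when MafA was added to Ngn3 with Pdx1 (3, and 0 with DESeq2).

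Of 23 tested β-cell genes, which include targets of the members, 14 rose with Ngn3 and none fell, where 11.1% of all genes rose. No median is given, since it falls on Ins1, for which this comparison could not be fitted. The lowest adjusted p-values belonged to the prohormone convertases Pcsk1 (8.85 ± 0.56, adjusted p = 7.07e-12) and Pcsk2 (10.04 ± 0.68, adjusted p = 2.06e-11) and the secretory granule proteins Chgb (10.15 ± 0.65, adjusted p = 8.04e-12) and Chga (9.79 ± 0.78, adjusted p = 4.00e-10). Adding Pdx1 to Ngn3 with MafA raised 2 of the 23, Ins1 (11.87 ± 1.79, adjusted p = 0.0040) and Iapp, the gene of islet amyloid (5.63 ± 1.36, adjusted p = 0.0243). Adding MafA to Ngn3 with Pdx1 raised 1, Ins1 (8.49 ± 1.48, adjusted p = 0.0083). All 3 calls were lost without replicate 2 (adjusted p = 0.148 and 0.315 for Ins1 and Iapp with Pdx1 added, and 0.150 for Ins1 with MafA added). Ins1 had 0 counts in all samples with Ngn3 and MafA, so its estimates depend on the prior count. It stood at 153, 39.6 and 0 CPM in WT and 62.5 and 8.86 CPM in 6SA cells with the 3 factors.

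Among 19 tested cofactors and relatives of the members, 3 rose with Ngn3 and 2 fell (median 0.27). Over all genes 21.5% were called and 11.1% rose, so the share called in this list was close to that over all genes. The corepressors Tle6 (1.28 ± 0.31, adjusted p = 0.0028) and Tle2 (1.27 ± 0.45, adjusted p = 0.0400) and the Mafa relative Maf (1.19 ± 0.37, adjusted p = 0.0184) rose. The corepressor Tle3 (-1.03 ± 0.21, adjusted p = 5.46e-04) was among those that fell. Of 12 tested duct and progenitor factors 1 rose and 4 fell (median -0.31), among them Foxj1, a factor for motile cilia (-3.32 ± 0.54, adjusted p = 3.33e-05). Onecut2 fell by 0.69 ± 0.16 (adjusted p = 0.0015) and Yap1 by 1.16 ± 0.36 (adjusted p = 0.0199). Of these, the calls of Tle6 and Yap1 were lost without replicate 1, those of Tle6, Tle2, Maf and Onecut2 without replicate 2 and that of Maf without replicate 3. The effect of Ngn3 on these lists was estimated over the same samples as that on the members.

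Markers of cell types moved with Ngn3 beside the members, and their part in the results was not tested. The summed level of 8 duct markers was 1434 to 16830 CPM with Ngn3 and 11357 to 57359 CPM without, and 1434 to 2778 CPM with the 3 factors. The 7 β-cell markers summed to 0.261 to 1890 CPM with Ngn3 and 0 to 47.3 CPM without, where Ins1, Ins2, Ucn3 and Slc30a8 were at 0. Slc30a8 was at 0 in all samples with the 3 factors too. The 4 δ-cell markers, Sst among them, reached 31849 CPM with Ngn3 and 559 CPM without, the 2 ε-cell markers 4981 and 2.24 CPM, the 5 α-cell markers 555 and 62.3 CPM, and the 2 PP-cell markers 1407 and 5.41 CPM. Acinar, mesenchymal, endothelial and immune markers reached at most 17.1, 397, 26.5 and 43.6 CPM in any sample. The 4 motor neuron markers, listed because Nkx6-1 and Mnx1 are also known there, were at 0 to 8.62 CPM with Ngn3 and at most 0.631 CPM without.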

How the data were processed

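Gene counts of 61 libraries of sorted 50-cell pools were used. Per the labels and the methods, the authors aligned single-end reads of 50 bases with GSNAP to mm10 and deposited raw counts per Ensembl gene from HTSeq (0.5.3p3), with technical repeats separate. Whether strand was used is not given in the sources used here. Reads in no gene (8.70% to 31.7% of a library) and ambiguous reads (3.92% to 24.9%) stayed out of totals and tests. Following the methods' criteria, libraries with over 1000000 gene counts, under 25% spike-in counts and over 10000 detected genes were kept (58). Totals per library ran from 241563 to 9736403. PCR copies are not separate molecules, and limits set by counts cover counting error only.

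Technical repeats were summed, and 24004 genes were tested, those with counts in 5 or more libraries and a variance of log2(CPM + 1) above 0.001. One model of all 12 conditions was fitted with edgeR 4.0.16 in R 4.3.3 (TMM, trended dispersion, quasi-likelihood test, 2-sided), with Benjamini-Hochberg adjustment over all genes tested and a threshold of 0.05. SEs are the log2 fold change divided by the square root of F. Comparisons with SEs above 20 were taken as not fitted: conditions without counts stood on both sides, so any value suited the counts. Where a group had at most 3 counts in each sample, folds were computed against 3 counts per sample.

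The members and gene lists were chosen with earlier results of these data known. Named genes were the members, the 5 genes most like each, Neurog3, Ins1, Ins2 and up to 4 called genes per list with the lowest adjusted p in the direction most called; Plut, Tle3 and Iapp were named after their values were seen, and some called genes of the lists are not reported here. Replicate numbers and passages are from the labels. Same-numbered samples deviated together in every pair of some comparisons (r from 0.156 to 0.438 in 5 of 5 pairs for Pdx1 added to Ngn3 with MafA, over the 5000 most expressed genes, 4 or 5 pairs each without Ngn3), and not in the others. Alternatives were DESeq2 1.42.0, RLE factors, plain totals, other gene filters, all libraries, the first technical repeat, only the groups compared, the replicate block and each replicate number left out. The fit without edgeR's legacy setting, 1 common Ngn3 term, the list without Neurog3 and the Ngn3 effect among cells with the MafA vector were added after seeing the data. On data simulated for the Ngn3 effect over all backgrounds (24003 genes, 100 changed at each size), edgeR found 97% at 16-fold and 79% at 4-fold, and 18 of its 194 calls were wrong. DESeq2 found 95% and 85%, and 65 of its 245 calls were wrong. Changed genes were drawn from those above a low mean count, with the same Ngn3 effect in all backgrounds and samples drawn independently. The rates therefore do not cover genes as low as Mnx1 or samples linked by replicate number.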

Additional observations from a re-analysis of the deposited data

Results flagged for a closer look

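The 3 pools left out for low totals all held the 3 factors and all had counts of Pdx1. On their plain totals, Pdx1 stood at 603 CPM in the left-out pool of WT replicate 2 (377 of 625650 counts). It stood at 422 CPM in that of 6SA replicate 2 (102 of 241563 counts) and at 179 CPM in that of 6SA replicate 3 (73 of 408733 counts). The highest sample with Pdx1 and MafA and without Ngn3 had 28.6 CPM in WT and 36.4 CPM in 6SA cultures. Mafa stood at 7.99 CPM in the pool of WT replicate 2 (5 counts) and at 14.7 CPM in that of 6SA replicate 3 (6 counts), against at most 4.21 and 1.45 CPM in cells with Pdx1 and MafA and without Ngn3 of the same cultures. 6SA cells with MafA alone reached 3.16 CPM. These values were in data outside the comparisons. The levels without Ngn3 are scaled by TMM, whereas those of the left-out pools are not. For Pdx1 the left-out pools were above the cells without Ngn3. For Mafa, a few counts in pools this shallow already exceed the levels set against it, so no comparison is drawn. No group had 4 samples, so single samples far from the rest were not tested for.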

How the results depend on the processing

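For the members, 23 results were recomputed under 291 alternatives, and 270 kept their direction and their side of the threshold; 7 further alternatives could not be fitted. The cause of each change below was not tested. Leaving out each replicate number in turn gave 0.54 to 1.31 for the Ngn3 effect on Pdx1 over all backgrounds, 2.05 to 4.68 for that on Nkx6-1 and 1.80 to 3.28 for that on Mafa with its vector. It gave 3.30 to 4.0 for Pdx1 when Pdx1 was added to Ngn3 with MafA, and 2.03 to 2.28 for Pdx1 and 7.83 to 8.41 for Mafa when MafA was added to Ngn3 with Pdx1. Where it left 1 sample in a condition, that sample was assumed to vary like the others. Among differences that never passed it turned the sign of Mafa with Pdx1 added to MafA (-0.21 to 0.80), of Pdx1 with MafA added to Pdx1 (-0.56 to 0.37) and of the difference between cultures in the Ngn3 effect on Pdx1 (-0.14 to 0.91). Signs also turned in single backgrounds, for Pdx1 in WT Pdx1 (-0.59 to 1.07), 6SA Pdx1 (-0.10 to 0.97) and 6SA MafA cells (-0.020 to 0.52), for Mafa in 6SA MafA cells (-1.35 to 2.60), and for Nkx6-1 in WT MafA (-1.07 to 4.12) and 6SA MafA cells (-0.74 to 1.54). With the first technical repeat alone, Mafa was -0.42 for Pdx1 added to MafA and Nkx6-1 was -0.41 for 6SA against WT. With 1 common Ngn3 term Pdx1 was 0.97 and no longer passed. Without the legacy setting, Nkx6-1 passed for Pdx1 added to Ngn3 with MafA (2.77, adjusted p = 0.0242). The difference in the Pdx1 response of Pdx1 with and without Ngn3 passed with DESeq2 (2.83, adjusted p = 0.0193), without a gene filter (2.73, adjusted p = 3.3e-04) and with the replicate block (2.24, adjusted p = 0.0270).

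With the block, Pdx1 was 0.46 for MafA added to Pdx1 without Ngn3, and Pdx1 in 6SA cells with Pdx1 and MafA passed for Ngn3 (2.12, adjusted p = 0.0037). The block ended no call of a member. Over all comparisons 137 of 160 same-numbered pairs had r over 0.1 (from -0.519 to 0.896), and 28 of 32 samples correlated best with a sample of their own number. Counts of called genes varied more: 2085 to 6620 (5168 as reported) for the Ngn3 effect, 0 to 2038 (654) for Pdx1 added to Ngn3 with MafA, 16 to 1454 (451) for MafA added to Ngn3 with Pdx1, and 0 to 587 (12) for the Pdx1 by Ngn3 interaction. The comparisons with 0 calls reached 61 (Pdx1 added to MafA), 28 (MafA added to Pdx1), 239 (6SA against WT) and 101 genes (difference between cultures) without a gene filter. The genes most like each member changed with the pseudocount: of 5, 3 remained for Pdx1 at 0.1 and at 10. Depth limits Mafa, Nkx6-1 and Mnx1, with 584, 410 and 21 counts in all.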
